A study of Mus musculus with 13 samples.

Results

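The genes described here lie beside Grn, the mouse progranulin gene, on chromosome 11. They are 41 genes taken from a fixed list of symbols, of 17562 genes in the largest of the 3 tables used here. In the GENCODE M21 annotation (GRCm38, the assembly that mm10 names), 40 of the 41 lie on chromosome 11, spread over 2.51 Mb, 18 before Grn and 22 after it. The exception is Dbf4, which activates a kinase of DNA replication and lies on chromosome 5. RefSeq gives the similar name Dbf4b as a synonym of Gm39501, a pseudogene on chromosome 11, so Dbf4 is listed with the members but does not flank Grn. Of the 41, 37 stand in all 3 tables. Nags, Slc4a1 and Kif18b stand only in the comparison of the mutant groups with each other, and Dbf4 is not listed for Grn+/- against wild type.

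Cortical RNA came from 13 males, all 18 months old, of 3 genotypes. Wild type (Grn+/+) had 5 mice, the heterozygotes with 1 mutant Grn allele (Grn+/-) had 4, and the remaining genotype (Grn-/-;GRNtg) had 4, with no working mouse Grn but with a transgene of human GRN. Strain, targeted allele and transgene promoter were not stated in the labels. Loss of both mouse copies and the human transgene come together in Grn-/-;GRNtg, so their effects cannot be told apart. The values are those of the authors' comparison tables, and no value for a single mouse was used here, so spread between mice is known only through the standard error (SE) of each log2 fold change. The labels number the mice within each genotype and name neither litter nor batch, and effects of either cannot be told apart from genotype.

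Progranulin is a secreted glycoprotein that also acts in the lysosome, and loss of a GRN copy causes frontotemporal dementia in humans. Genes that lie close to a targeted locus are inherited together with it, because few crossovers fall between neighbours. Where a targeted allele was made in stem cells of another strain, mice that carry it can therefore also carry that strain's variants of the flanking genes. Whether the mice studied here carry such variants was not tested.

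Mouse Grn (chromosome 11, 102430315 to 102437048, plus strand) followed the labels. In the authors' deposited tables its log2 fold change was -0.65 ± 0.077 (SE) in Grn+/- and -2.02 ± 0.081 in Grn-/-;GRNtg against wild type. A gene counts as called here where the authors' adjusted p was under 0.05 over all genes of the table, and "rose" and "fell" are written only of called genes. Across the libraries, reads assigned to no gene were lower in both mutant groups, with log2 fold changes of -0.22 ± 0.052 (adjusted p = 0.0019) and -0.18 ± 0.052 (adjusted p = 0.024) against wild type in the authors' deposited tables. The part of that shift in the results on single genes was not tested. Markers of excitatory neurons had mean normalized counts between 533 and 79958 in the authors' deposited table, and those of interneurons between 620 and 6404. Kcnj13, the one choroid plexus marker listed, was at 25.1 there, and the liver genes Alb, Apoa1, Apoa2 and Ahsg lay between 10.9 and 164. Of these, Apoa1, Apoa2 and Ahsg rose in Grn-/-;GRNtg against wild type, by log2 fold changes of 0.71, 0.72 and 0.61 (adjusted p = 6.7e-07, 2.7e-05 and 4.9e-08), in the authors' deposited table, and all 3 were also called higher against Grn+/-. In the same comparison with wild type, the endothelial markers Flt1, Kdr and Slco1c1 (3 of 5) fell by 0.36, 0.40 and 0.36 in the authors' deposited table. Camk2a, a neuronal kinase, fell by 0.20 and was the 1 of 7 excitatory neuron markers called there, in the authors' deposited table. Of these 7, 3 had positive values, and the median was -0.002. In Grn+/- the astrocyte markers Gja1 and Slc1a2 (2 of 5) and the oligodendrocyte precursor marker Gpr17 (1 of 3) fell, by 0.26, 0.22 and 0.49, in the authors' deposited table. Rorb, 1 of the 7 excitatory neuron markers, rose by 0.37, while 3 of the 7 had negative values, in the authors' deposited table. No marker of interneurons, microglia, oligodendrocytes, mural cells, blood or striatum was called in any comparison in the authors' deposited tables. Still, all 5 striatal markers had positive values in Grn-/-;GRNtg, from 0.08 to 0.19 against wild type and 0.13 to 0.27 against Grn+/-. In Grn+/- against wild type 1 of the 5 was positive. All 4 oligodendrocyte markers had negative values in each comparison, from -0.23 to -0.18 in Grn-/-;GRNtg against wild type, in the authors' deposited tables. The part of these shifts in the members' values was not tested.

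In Grn+/- cortex, a pair of flanking genes rose and a pair fell. Mpp3, a scaffold protein of cell junctions and synapses, and Adam11, a neuronal member of the ADAM family, were higher than in wild type. Hdac5, a histone deacetylase that shuttles between nucleus and cytoplasm, and Itga2b, the platelet integrin alpha chain, were lower. In all, 4 of 37 members were called, or 10.8%, beside 6.8% of all 13482 genes in the authors' deposited table. By direction, 2 members were higher (2.29% of all genes) and 2 lower (4.51% of all genes). The median log2 fold change of the members was -0.00 and their median absolute log2 fold change 0.07, beside 0.01 and 0.09 over all genes of the authors' deposited table. The remaining 33 members of that table did not pass, and the members ran from -0.42 (Itga2b) to 0.33 (Ccdc103, which did not pass).

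In Grn-/-;GRNtg cortex, 3 flanking genes rose and 3 fell against wild type. The higher genes were Mpp3, Adam11 and Eftud2, a GTPase of the spliceosome. The lower genes were Arl4d, a small GTPase of the Arf family, Arhgap27, a GTPase-activating protein, and Plekhm1, an adaptor that links Rab7 to the fusion of late endosomes and autophagosomes with lysosomes. These were 6 of 38 members, or 15.8%, beside 4.87% of all 14961 genes in the authors' deposited table. For each direction the share over all genes was 1.81% higher and 3.05% lower in the authors' deposited table. The members' median log2 fold change was -0.05 and their median absolute log2 fold change 0.13, beside 0.01 and 0.10 over all genes of the authors' deposited table. No test of the list against other genes was made, and the mutant groups share the same wild-type mice.

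Between the mutant groups, Arl4d was the 1 of 41 members called (2.44%), and it was lower in Grn-/-;GRNtg. Of all 17562 genes, 0.467% were called in that comparison of the authors' deposited tables, with 0.319% being higher and 0.148% being lower. The median absolute log2 fold change of the members was 0.08 there, beside 0.07 over all genes of the authors' deposited table.

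**Figure D1:**
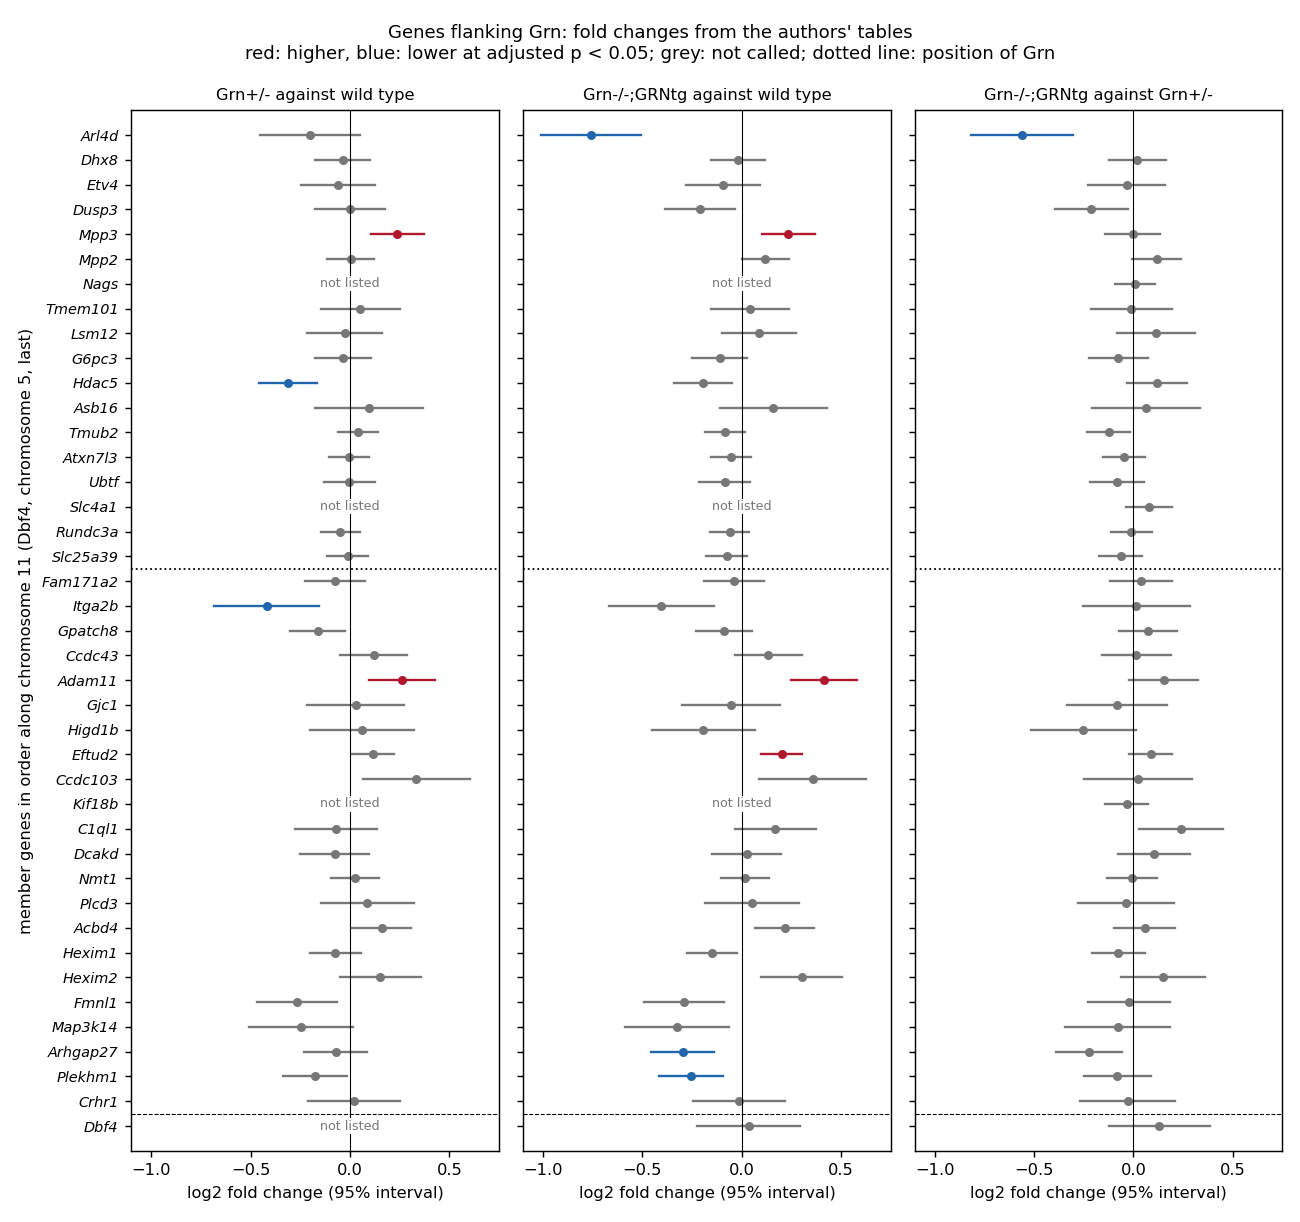
Log2 fold changes (x axis) of the 41 members in order along chromosome 11 (y axis, Dbf4 of chromosome 5 last), one panel per comparison. Points are the authors' estimates, bars their 95% intervals, and the dotted line marks the place of Grn. Called genes, in red (higher) and blue (lower), lie among uncalled neighbours on both sides of Grn, and Arl4d at -0.76 in the middle panel is the lowest point.

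Among the genes of signalling, small GTPases, cytoskeleton and trafficking, 3 of 9 listed members fell in Grn-/-;GRNtg against wild type. In Grn+/- 0 of 9 were called, and 1 of 10 fell between the mutant groups, in the authors' deposited tables. Of all genes, 3.05% fell in Grn-/-;GRNtg, 6.8% were called in Grn+/-, and 0.148% fell between the mutant groups, in the authors' deposited tables. No role group was tested against other genes. Arl4d (chromosome 11, 101665541 to 101667832, plus strand) lies 765 kb before the Grn start. Its log2 fold change was -0.20 ± 0.128 in Grn+/-, with adjusted p = 0.39, and -0.76 ± 0.129 in Grn-/-;GRNtg (adjusted p = 3.9e-06) against wild type in the authors' deposited tables. The latter is 59.1% of the wild-type level, with a 95% interval from 49.6% to 70.4%, computed from the authors' deposited table. Set against Grn+/-, the authors' deposited table has -0.56 ± 0.131 (adjusted p = 0.0098), or 67.8% of the Grn+/- level with an interval from 56.8% to 81.1%. So the lower level in Grn-/-;GRNtg than in Grn+/- passed a test of its own, while the value in Grn+/- against wild type did not.

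A list of 17 genes that neurons and other cells induce through ERK signalling and activity, drawn up with earlier results of these data known, was read beside Arl4d. Of these, 12 fell in Grn-/-;GRNtg and 1 in Grn+/- against wild type, with medians of -0.54 and -0.22, in the authors' deposited tables. Of all genes, 3.05% and 4.51% fell in these comparisons in the authors' deposited tables. From one mutant group to the other, 4 of the 17 were lower and 1, Etv1, was higher, with a median of -0.28 in the authors' deposited table. Of all genes, 0.148% were lower and 0.319% higher there, in the authors' deposited table. Because the list was drawn up with results known, its counts are a description and no test. The part of such signalling in the Arl4d result was not tested. Etv4, a transcription factor of the ETS family and itself a flanking gene, was at -0.06 ± 0.095 and -0.09 ± 0.095 against wild type in the authors' deposited tables and was not called. Dusp3, a dual-specificity phosphatase that acts on ERK and JNK, was at -0.00 ± 0.090 in Grn+/- and -0.21 ± 0.090 in Grn-/-;GRNtg in the authors' deposited tables, the latter with adjusted p = 0.15.

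The bases just before the Arl4d start are shown because it is the member with the largest change. They are from RefSeq on GRCm38.p6, at chr11:101665291-101665540 on the plus strand, 5′ to 3′, with motif matches in capitals.
Arl4d: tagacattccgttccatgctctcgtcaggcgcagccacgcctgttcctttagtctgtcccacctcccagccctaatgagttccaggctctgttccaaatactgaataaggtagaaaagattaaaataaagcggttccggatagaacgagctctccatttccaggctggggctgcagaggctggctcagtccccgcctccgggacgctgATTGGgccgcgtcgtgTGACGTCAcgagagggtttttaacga
Letters of 5 motifs were searched on both strands in the 250 bases before each start: the CRE letters TGACGTCA, the E-box letters CACGTG, the CCAAT box, the GC box letters GGGCGG and the TATA box letters TATAAA. The Arl4d window holds TGACGTCA from 26 to 19 bases before the start, and CCAAT, read as ATTGG on this strand, from 42 to 38 bases before it. Over all 32851 windows in the RefSeq table, 1.55% hold the CRE letters, 6.02% those of the E-box, 33.8% those of the CCAAT box, 32.7% those of the GC box and 12.4% those of the TATA box. A match is a string of letters, and binding was not measured here.

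Arhgap27 (103331497 to 103363692) and Plekhm1 (103364275 to 103412687) are next to each other on the minus strand of chromosome 11, with 582 bases between them. Arhgap27 was at -0.07 ± 0.081 in Grn+/-, with adjusted p = 0.67, and -0.30 ± 0.082 in Grn-/-;GRNtg, with adjusted p = 0.014, against wild type in the authors' deposited tables. The latter was 81.4% of the wild-type level (95% interval 72.8% to 90.9%), computed from the authors' deposited table. Plekhm1 was at -0.17 ± 0.082 (adjusted p = 0.20) and -0.26 ± 0.082 (adjusted p = 0.045) against wild type in the authors' deposited tables. From one mutant group to the other, neither was called in the authors' deposited table, with -0.22 ± 0.085 for Arhgap27 (adjusted p = 0.29; 95% interval -0.39 to -0.06) and -0.08 ± 0.086 for Plekhm1 (adjusted p = 0.87; -0.25 to 0.09).

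An antisense RNA inside the body of Arhgap27 went the other way. Arhgap27os3 (103344753 to 103350124, plus strand) is no member and was singled out after its values were seen. It rose in Grn-/-;GRNtg, with 0.76 ± 0.117 against wild type (adjusted p = 1.3e-07) and 0.50 ± 0.115 against Grn+/- (adjusted p = 0.0089) in the authors' deposited tables. Its mean normalized count was 8.18 in the authors' deposited table, so few reads stand behind it, beside 379 for Arhgap27. Its exons share 0 bases with exons of Arhgap27 in the annotation, but its start lies 51 bases from the start of a short protein-coding Arhgap27 transcript on the other strand. Whether the authors' counting used strand is not stated in the labels, so reads of the antisense RNA and of unspliced Arhgap27 cannot be told apart.

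The windows of both Arhgap27 starts and of the Plekhm1 start are printed to compare these adjacent genes, each from RefSeq on GRCm38.p6, minus strand, 5′ to 3′, with matches to the same motifs in capitals. The window of the inner Arhgap27 start (chr11:103344703-103344952) also holds the start of Arhgap27os3. The outer Arhgap27 window is chr11:103363693-103363942, and that of Plekhm1 is chr11:103412706-103412955.
Arhgap27 outer start: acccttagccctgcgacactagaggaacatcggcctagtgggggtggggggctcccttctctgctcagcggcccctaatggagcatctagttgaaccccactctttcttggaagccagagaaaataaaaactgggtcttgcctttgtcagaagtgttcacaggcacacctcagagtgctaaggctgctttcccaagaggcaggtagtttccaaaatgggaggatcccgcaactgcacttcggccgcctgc
Arhgap27 inner start: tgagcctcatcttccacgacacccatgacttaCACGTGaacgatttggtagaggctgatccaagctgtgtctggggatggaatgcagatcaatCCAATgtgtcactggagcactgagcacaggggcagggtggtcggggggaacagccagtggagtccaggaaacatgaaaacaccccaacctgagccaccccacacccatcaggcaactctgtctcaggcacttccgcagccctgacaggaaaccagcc
Plekhm1: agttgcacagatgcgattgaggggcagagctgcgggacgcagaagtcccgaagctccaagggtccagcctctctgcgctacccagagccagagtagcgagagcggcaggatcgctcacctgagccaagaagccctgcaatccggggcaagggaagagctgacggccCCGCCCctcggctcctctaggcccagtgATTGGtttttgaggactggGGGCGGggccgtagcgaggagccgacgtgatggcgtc
None of the 5 motifs is in the outer Arhgap27 window. The inner one holds CACGTG from 218 to 213 and CCAAT from 157 to 153 bases before the start. Plekhm1 holds GGGCGG from 37 to 32 bases before the start and the same letters on the other strand, read as CCGCCC, from 84 to 79, and CCAAT, as ATTGG, from 56 to 52. These windows therefore share no motif at a common place.

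The other members of this group were not called. Fmnl1, a formin that builds actin filaments, was at -0.27 ± 0.102 (adjusted p = 0.091) in Grn+/- and -0.29 ± 0.102 (adjusted p = 0.070) in Grn-/-;GRNtg against wild type in the authors' deposited tables. Map3k14, the kinase NIK of noncanonical NF-kappaB signalling, was at -0.25 ± 0.133 and -0.32 ± 0.134 there, with adjusted p = 0.29 and 0.13 in the authors' deposited tables. From Fmnl1 to Plekhm1, 4 members that follow each other on the list had negative values in both comparisons against wild type, which share their controls. Other genes lie between them. Of these, 1700023F06Rik was at 0.26 ± 0.131 in Grn+/- and 0.16 ± 0.131 in Grn-/-;GRNtg in the authors' deposited tables. Spata32 was at -0.12 ± 0.136 in Grn-/-;GRNtg in the authors' deposited table, and neither was called. Ccdc103, a factor for the assembly of ciliary dynein arms, was at 0.33 ± 0.138 and 0.36 ± 0.138 with adjusted p = 0.13 and 0.10 in the authors' deposited tables. Plcd3, a phospholipase C, and Nmt1, which attaches myristate to proteins, lay between 0.02 and 0.09 against wild type in the authors' deposited tables. Kif18b, a kinesin of the mitotic spindle, averaged 1.90 normalized counts in the authors' deposited table, and its only value, between the mutant groups, was -0.03 ± 0.056. At so few reads, this small SE does not show that the gene was unchanged.

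Among the membrane, synapse and adhesion genes, 2 of 10 listed members rose and 1 fell in Grn+/- against wild type. In Grn-/-;GRNtg 2 of 10 rose against wild type, in the authors' deposited tables. Of all genes, 2.29% rose and 4.51% fell in Grn+/-, and 1.81% rose in Grn-/-;GRNtg, in the authors' deposited tables. Adam11 (102761439 to 102780262, plus strand) starts 331 kb after Grn. It was at 0.26 ± 0.085 in Grn+/- (adjusted p = 0.038) and 0.41 ± 0.085 in Grn-/-;GRNtg (0.00034 for the adjusted p) in the authors' deposited tables. These are 120% and 133% of the wild-type level, with 95% intervals from 107% to 134% and from 119% to 149%, computed from the authors' deposited tables. The difference between the mutant groups, 0.15 ± 0.088 in the authors' deposited table, did not pass (adjusted p = 0.65), and its interval ran from -0.02 to 0.33.

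Mpp3 (101999652 to 102028461, minus strand) starts 402 kb before Grn. It was at 0.24 ± 0.068 in Grn+/- (adjusted p = 0.014) and 0.23 ± 0.068 in Grn-/-;GRNtg (0.022 for the adjusted p) in the authors' deposited tables. From one mutant group to the other, it was at -0.00 ± 0.071, with an interval from -0.14 to 0.14, in the authors' deposited table. The value is thus near the same in Grn+/- mice and in Grn-/-;GRNtg mice, which lack working mouse Grn and carry the human transgene. Even so, the interval admits a difference of up to 0.14 either way. Its paralogue Mpp2, the next listed member along the chromosome and also a scaffold of the same family, was at 0.00 ± 0.060 and 0.12 ± 0.060 against wild type in the authors' deposited tables and was not called.

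Itga2b (102453297 to 102470122, minus strand) starts 39.8 kb after the Grn start, the closest of the called members. It was at -0.42 ± 0.135 in Grn+/- (adjusted p = 0.035) and -0.40 ± 0.135 in Grn-/-;GRNtg (0.054 for the adjusted p) in the authors' deposited tables. The latter just missed the threshold, and against Grn+/- the authors' deposited table has 0.02 ± 0.137 (95% interval -0.25 to 0.28). In cortex this platelet gene averaged 64.9 normalized counts in the authors' deposited table. In such bulk samples, fewer cells of a type and less RNA per cell cannot be told apart. The platelet genes Pf4, Ppbp and Gp9 were at -0.09, -0.22 and -0.17 in Grn-/-;GRNtg against wild type in the authors' deposited table and were not called. The blood list held 9 genes, of which 1 was listed for Grn+/- (Alas2, at -0.27 in the authors' deposited table, not called) and 4 for Grn-/-;GRNtg against wild type, all not called, with values from -0.22 to -0.04. The 4 globin genes of that list were not analysed here. The part of blood in the Itga2b result was not tested. Slc4a1, the anion exchanger of red cells, averaged 2.27 normalized counts in the authors' deposited table and was at 0.08 ± 0.058 between the mutant groups. Few reads stand behind that value, so its small SE is not read as precision.

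Fam171a2, a membrane protein, is the nearest neighbour of Grn after it, and its end overlaps that of Grn on the other strand. In the annotation the overlap covers 68 bases, all of them exonic in both genes. While Grn fell, Fam171a2 was at -0.08 ± 0.076 in Grn+/- (adjusted p = 0.64) and -0.04 ± 0.076 in Grn-/-;GRNtg (0.82 for the adjusted p) in the authors' deposited tables. Its level in Grn-/-;GRNtg was 97.4% of wild type, with an interval from 87.8% to 108%, computed from the authors' deposited table. Slc25a39, a carrier of the mitochondrial inner membrane, is the nearest member before Grn. It was at -0.01 ± 0.052 and -0.08 ± 0.052 against wild type in the authors' deposited tables. Rundc3a, a neuronal protein that comes next, was at -0.05 ± 0.050 and -0.06 ± 0.050 there, in the authors' deposited tables. None of these 3 members, the nearest by distance between starts, was called in a comparison. By gene body, Itga2b lies nearer to Grn than Slc25a39 and Rundc3a do, and it was called in Grn+/-.

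The remaining membrane genes were not called. C1ql1, a synaptic organizer related to complement C1q, was at -0.07 ± 0.105 and 0.17 ± 0.104 against wild type in the authors' deposited tables, and at 0.24 ± 0.108 between the mutant groups (adjusted p = 0.46). Crhr1, a receptor of corticotropin-releasing hormone and the farthest member at 1703 kb, was at 0.02 ± 0.118 and -0.01 ± 0.118 in the authors' deposited tables. Gjc1, a connexin of gap junctions, was at 0.03 ± 0.125 and -0.05 ± 0.125, and Tmem101 at 0.05 ± 0.101 and 0.04 ± 0.101, in the authors' deposited tables.

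**Figure D2:**
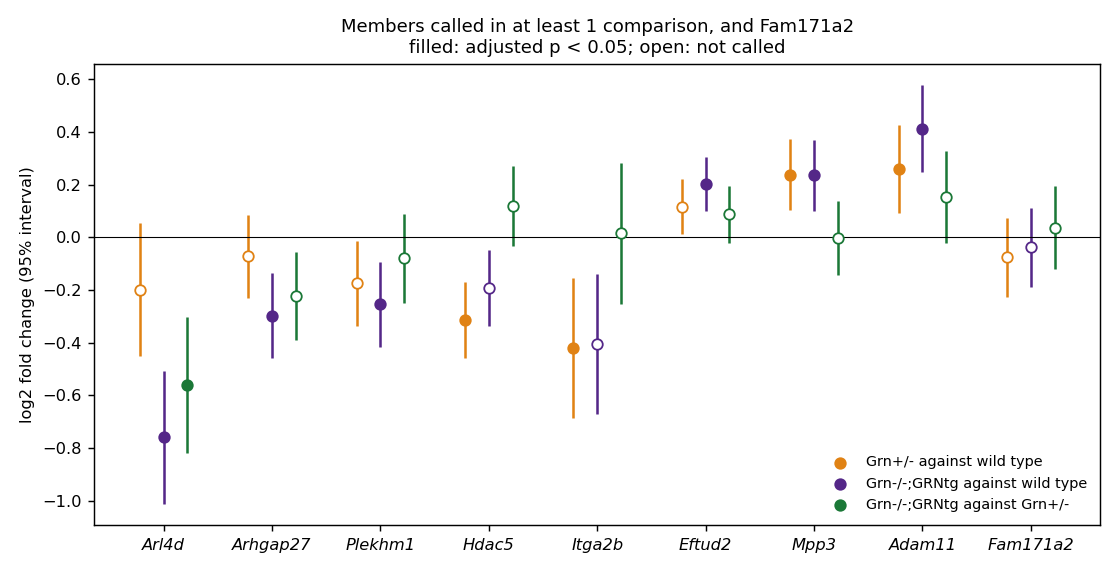
Log2 fold changes (y axis, points) with 95% intervals (bars) of the 8 members called in at least 1 comparison and of Fam171a2 (x axis), in the 3 comparisons. Filled points passed. Arl4d is the only gene with a filled point for Grn-/-;GRNtg against Grn+/-, Mpp3 and Adam11 are filled in both comparisons with wild type, and all 3 intervals of Fam171a2 include 0.

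Among the genes of transcription, chromatin and RNA processing, 1 of 10 was called in each comparison against wild type. Between the mutant groups 0 of 10 were called, in the authors' deposited tables. Of all genes, 6.8% were called in Grn+/-, 4.87% in Grn-/-;GRNtg and 0.467% between the mutant groups, in the authors' deposited tables. Hdac5 (102194432 to 102230166, minus strand) starts 200.1 kb before Grn. It fell in Grn+/-, at -0.31 ± 0.074 (adjusted p = 0.0017), or 80.5% of wild type with an interval from 72.8% to 89.0%, in the authors' deposited table. In Grn-/-;GRNtg it was at -0.19 ± 0.074 (adjusted p = 0.098), and the difference between the mutant groups was 0.12 ± 0.077 (adjusted p = 0.71; 95% interval -0.03 to 0.27), in the authors' deposited tables. So a call in Grn+/- was paired with none in Grn-/-;GRNtg, but the difference between these groups did not pass.

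Eftud2 (102838473 to 102880985, minus strand) was at 0.12 ± 0.053 in Grn+/- (adjusted p = 0.18) and 0.20 ± 0.053 in Grn-/-;GRNtg (0.0085 for the adjusted p) in the authors' deposited tables. There it stood at 115% of wild type, with an interval from 107% to 124%, computed from the authors' deposited table. The start of Ccdc103 lies 219 bases from its start on the other strand. That gene had the positive values given above and was not called.

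Hexim1 and Hexim2, inhibitors of the transcription elongation factor P-TEFb, are neighbours on the plus strand. Hexim2 was at 0.30 ± 0.104 (adjusted p = 0.064) and Hexim1 at -0.15 ± 0.065 (adjusted p = 0.16) in Grn-/-;GRNtg against wild type in the authors' deposited table. Neither was called, and their values differ in sign. Gpatch8, a protein with a G-patch domain, was at -0.16 ± 0.071 in Grn+/- (adjusted p = 0.16) in the authors' deposited table. Ubtf, a factor of RNA polymerase I, Atxn7l3, a subunit of the SAGA deubiquitinase, Dhx8, a helicase of splicing, and Lsm12, an RNA-binding protein, lay between -0.09 and 0.09 in both comparisons with wild type in the authors' deposited tables. Their SEs were between 0.051 and 0.096.

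None of the 5 metabolic and mitochondrial members listed against wild type was called, and none of 6 between the mutant groups, in the authors' deposited tables. Of all genes, 6.8% were called in Grn+/-, 4.87% in Grn-/-;GRNtg and 0.467% between the mutant groups, in the authors' deposited tables. With so few members, a count of 0 says little about the group. Acbd4, which binds acyl-CoA, was at 0.16 ± 0.076 (adjusted p = 0.21) and 0.22 ± 0.076 (adjusted p = 0.069) against wild type in the authors' deposited tables. Its start is 24 bases from that of Plcd3 on the other strand. Higd1b, a mitochondrial gene of pericytes, was at 0.06 ± 0.132 and -0.19 ± 0.133 against wild type in the authors' deposited tables. In Grn-/-;GRNtg against wild type, 0 of 6 mural cell markers were called, with 4 of 6 negative and a median of -0.13. Of the endothelial markers 3 of 5 fell there, beside 3.05% of all genes, in the authors' deposited table. The part of such cells in the Higd1b values was not tested. G6pc3, a glucose-6-phosphatase, was at -0.04 ± 0.071 and -0.11 ± 0.071, and Dcakd, a dephospho-CoA kinase domain protein, at -0.08 ± 0.089 and 0.02 ± 0.089, in the authors' deposited tables. Dcakd and Nmt1 overlap by 144 bases at their starts, on opposite strands. Nags, the enzyme that makes N-acetylglutamate for the urea cycle, averaged 1.46 normalized counts in the authors' deposited table.

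The 4 other members were not called where listed, beside the same shares over all genes. Tmub2, a membrane protein with a ubiquitin-like domain, was at 0.04 ± 0.052 in Grn+/- and -0.08 ± 0.052 in Grn-/-;GRNtg in the authors' deposited tables, and at -0.12 ± 0.054 between the mutant groups (adjusted p = 0.43). Ccdc43 was at 0.12 ± 0.086 and 0.13 ± 0.086, and Asb16, of the family of SOCS-box proteins, at 0.09 ± 0.138 and 0.16 ± 0.138, against wild type in the authors' deposited tables. Dbf4, of chromosome 5, was at 0.03 ± 0.132 in Grn-/-;GRNtg against wild type in the authors' deposited table.

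Levels of the members in cortex spanned several orders of magnitude. Divided by the length of their merged exons, mean normalized counts per kb over all libraries were highest for Rundc3a (3141), Atxn7l3 (1581), Fam171a2 (1056), Adam11 (1052) and Fmnl1 (977), computed from the authors' deposited table. They were lowest for Slc4a1 (0.465), Nags (0.515) and Kif18b (0.533), genes of red cells, liver and dividing cells, on the same scale from the authors' deposited table. The called members spread over this range, with Hdac5 at 690, Arl4d at 380, Eftud2 at 262, Mpp3 at 165, Plekhm1 at 129, Arhgap27 at 59.1 and Itga2b at 11.9 per kb, from the authors' deposited table. Spread over mice is not known for these levels, so neighbours in this order are not said to differ.

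**Figure D3:**
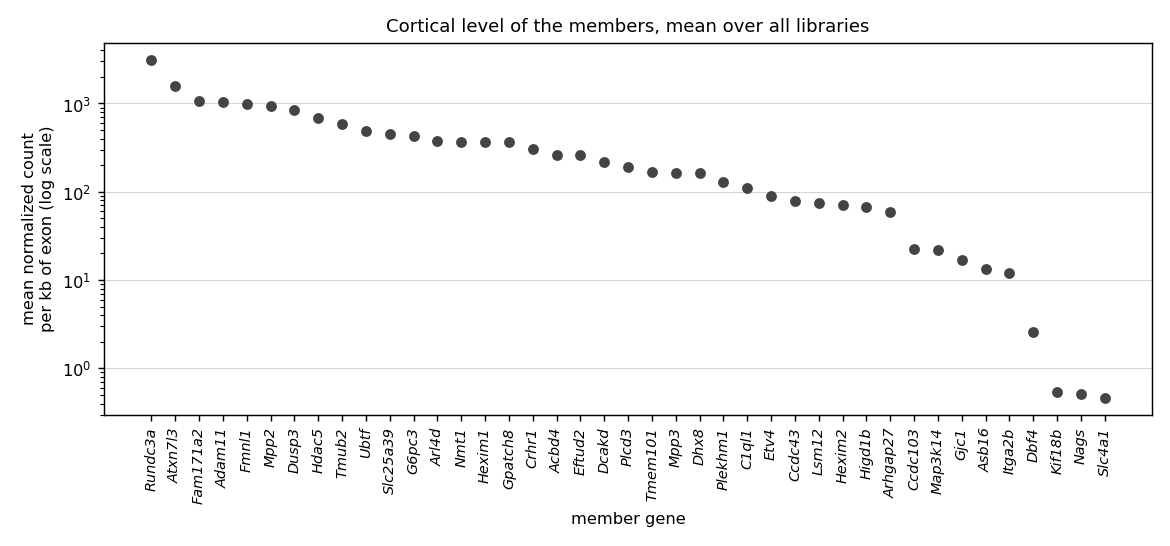
Mean normalized count per kb of merged exon (y axis, log scale) for each of the 41 members (x axis), averaged over all libraries by the authors. The values fall from 3141 for Rundc3a to 0.465 for Slc4a1, with the last 3 genes well below the others.

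Changes were then set against distance from Grn. Across the 37 members on chromosome 11 listed in each comparison with wild type, absolute log2 fold change and distance of the start from the Grn start had a Spearman correlation of 0.21 in Grn+/- and 0.27 in Grn-/-;GRNtg, computed from the authors' deposited tables. These are descriptions across genes that share the same libraries. All protein-coding genes of chromosome 11, members or not and without Grn, were then counted by distance. In Grn+/- against wild type, 5 of 25 genes within 0.5 Mb were called (20.0%), 1 of 22 from 0.5 to 1 Mb (4.55%), 4 of 43 from 1 to 2 Mb (9.30%) and 52 of 949 beyond 2 Mb (5.48%), in the authors' deposited table. On the other chromosomes 6.89% were called there, in the authors' deposited table. In Grn-/-;GRNtg against wild type the counts were 3 of 26 (11.5%), 5 of 25 (20.0%), 4 of 45 (8.89%) and 31 of 1032 (3.00%), beside 5.01% on other chromosomes, in the authors' deposited table. From one mutant group to the other, 1 of 107 genes within 2 Mb was called, Arl4d, beside 0.488% on other chromosomes, in the authors' deposited table. The bins near Grn hold few genes, and their shares were not tested against the rest.

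Outside the members, 9 protein-coding genes within 2 Mb were called in a comparison. Meox1, a homeobox gene before Grn, was at 0.43 ± 0.137 in Grn+/- (adjusted p = 0.032) and 0.48 ± 0.137 in Grn-/-;GRNtg (0.019 for the adjusted p) in the authors' deposited tables, with a mean normalized count of 26.2. Aoc2, an amine oxidase, fell in both, at -0.35 ± 0.117 and -0.43 ± 0.118, and so did Rundc1, at -0.18 ± 0.062 and -0.19 ± 0.062, in the authors' deposited tables. Klhl11 fell by 0.66 (SE 0.134), and Dnajc7 (0.17 ± 0.052) and Gm11627 (0.48 ± 0.138) rose, in Grn+/- in the authors' deposited table. In Grn-/-;GRNtg, Klhl11, Dnajc7 and Gm11627 were at -0.32 ± 0.134, 0.15 ± 0.052 and 0.16 ± 0.138 in the authors' deposited table and were not called. In Grn-/-;GRNtg the gamma-tubulin genes Tubg1 and Tubg2 went opposite ways, at 0.27 ± 0.085 and -0.22 ± 0.058, in the authors' deposited table. Rnd2, a small GTPase, rose there at 0.24 ± 0.073 in the authors' deposited table. In Grn+/-, Tubg1, Tubg2 and Rnd2 were at 0.22 ± 0.085, -0.03 ± 0.057 and 0.21 ± 0.073 in the authors' deposited table and were not called. None of these genes was called between the mutant groups. Called genes on both sides of Grn were thus of both signs.

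**Figure D4:**
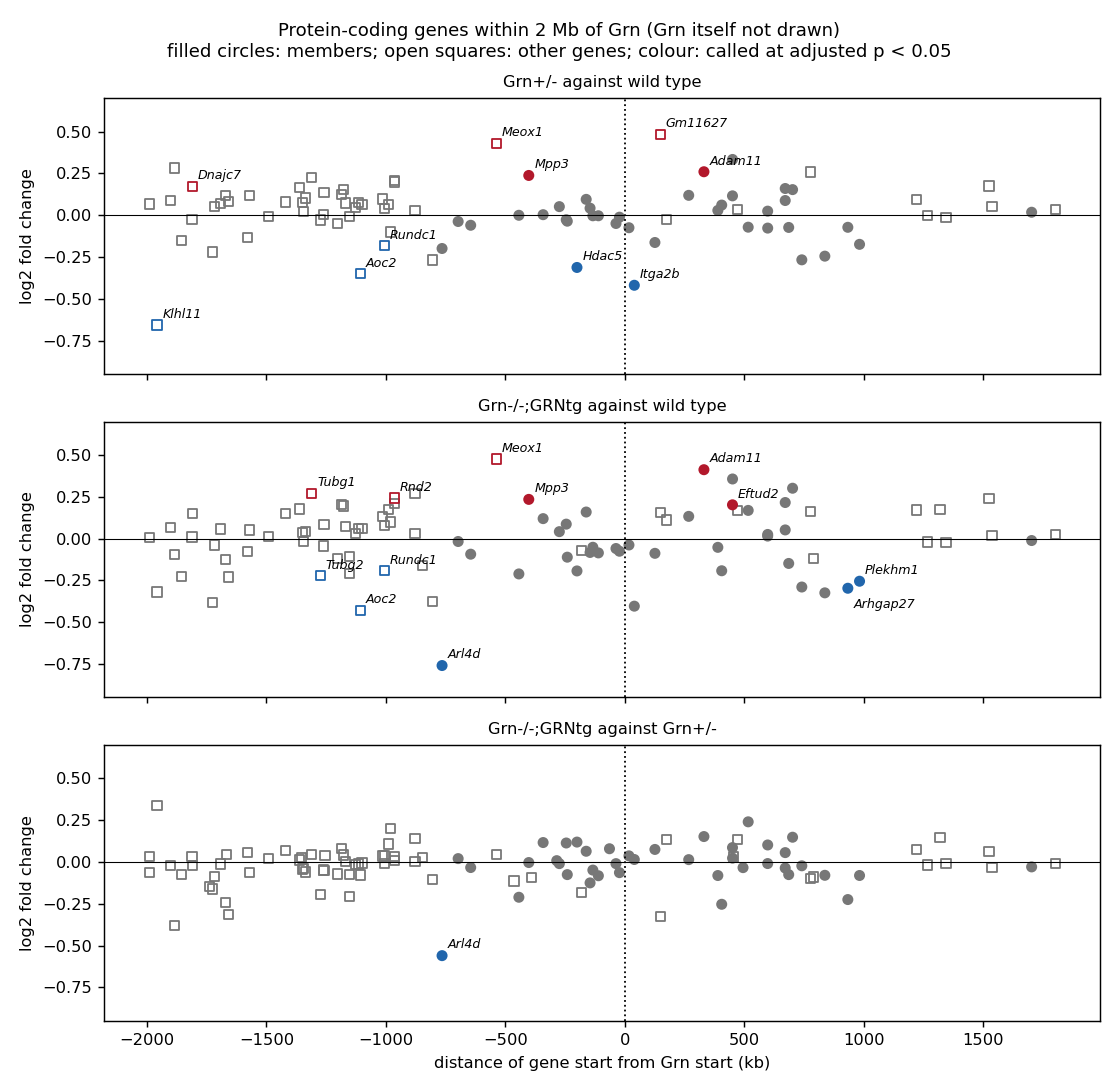
Log2 fold change (y axis) of protein-coding genes within 2 Mb of Grn against the distance of their start from the Grn start in kb (x axis), one panel per comparison. Filled circles are members, open squares other genes, and red or blue marks those called higher or lower. Called genes lie above and below 0 on both sides of Grn, and the bottom panel holds the 1 call of Arl4d.

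The calls depend on how the authors' statistics are scaled. With each statistic divided by its robust spread over all genes, 0 members passed in any comparison, and the lowest adjusted p was 0.36 (Hdac5) in Grn+/-, 0.17 (Arl4d) in Grn-/-;GRNtg, and 0.055 (Arl4d) between the mutant groups. When an absolute log2 fold change of 0.3 or more was required, the calls of Mpp3, Eftud2, Arhgap27 and Plekhm1 ended, as did that of Adam11 in Grn+/-.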

How the data were processed

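RNA of 13 cortices was compared in 3 genotypes. Build mm10, R 4.1.2 and DESeq2 1.34.0 are named, with no role, in the submitters' processing notes, with aligner, counter, annotation and strand setting not given in the sources used here. Per the file headers, the authors deposited for each gene a mean normalized count (a signal averaged over libraries), a log2 fold change, its SE and Wald statistic (both scores), and a p-value and adjusted p-value. The statistic equals the fold change over its SE, and Benjamini-Hochberg adjustment returned the authors' deposited adjusted p-values. The authors' lists of significant genes, not used here, held the called rows, except that for Grn-/-;GRNtg against wild type 1 symbol was written as a date. SEs have a ceiling of 0.138 in all 3 tables. Nags, Slc4a1 and Kif18b, with mean normalized counts from 1.46 to 2.27, had SEs from 0.052 to 0.058 between the mutant groups. That of Rundc3a, at 9238, was 0.053, so a small SE at few reads is no sign of precision. If a prior drew fold changes towards 0, which no source states, values of genes with few reads understate the change. The same would hold for genes with an SE near the ceiling (6 members above 0.13 in Grn-/-;GRNtg against wild type). The rows no_feature and ambiguous (17.0% and 0.606% of the summed mean normalized counts) were left out.

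Depth per mouse is not known here. P-values rest on the authors' model of the spread among mice, and 95% intervals are the fold change and its SE under a normal distribution. Genes were named by this rule: full values for members called in any comparison and those overlapping Grn, the 3 smallest p-values of each role group, and called protein-coding genes within 2 Mb that are no member. Members, lists and tests were chosen with earlier results of these data known. Symbols were matched to GENCODE M21, and 27 of 41 members to RefSeq promoter windows of GRCm38.p6, which hold 5 of the 8 called members. The adjustment and robust spread were tested on simulated data. Python 3.11.15, numpy 2.4.6, pandas 2.3.3, scipy 1.17.1 and matplotlib 3.10.9 were used.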

Additional observations from a re-analysis of the deposited data

How the results depend on the processing

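Members called numbered 4 of 37 in Grn+/- and 6 of 38 in Grn-/-;GRNtg against wild type, and 1 of 41 between the mutant groups. Adjustment over the 13482 genes in all 3 tables kept all 11 calls, and a mean normalized count of at least 100 kept the 10 it could test (Itga2b was below it). Leaving out members that overlap another protein-coding gene, members beyond 1 Mb, or, chosen after seeing the data, Dbf4 changed none of the 3 counts. With the statistic over its robust spread (1.5, 1.6 and 1.1), 0 members and 0 genes within 2 Mb were called in each comparison. Of all genes, 3, 5 and 29 were called under that scaling. At an unadjusted p under 0.05, 4, 6 and 5 members passed under that scaling, beside 6.60%, 4.62% and 6.33% of all genes. In the authors' test 10, 16 and 5 members did so, beside 20.2%, 20.5% and 8.99% of all genes. Requiring an absolute log2 fold change of 0.3 or more left 2 of 37 members called in Grn+/- and 2 of 38 in Grn-/-;GRNtg. Of all genes, 3.70% and 3.03% were called under that minimum. Within 2 Mb, 6 and 4 genes were left, of 10 and 12. At an adjusted p under 0.01 the members were 1 of 37 (Hdac5) and 3 of 38 (Eftud2, Adam11 and Arl4d), beside 2.65% and 1.70% of all genes. The genes within 2 Mb were then 2 and 4. In both of these settings Arl4d was still called between the mutant groups, beside 0.393% (fold change minimum) and 0.199% (adjusted p under 0.01) of all genes. No paired analysis was possible because the tables used here hold no value per mouse, and leaving out single mice was not run for the same reason. Depth per mouse is not known here, and few reads stand behind Arhgap27os3, Nags, Slc4a1 and Kif18b. Over all genes, 917, 728 and 82 were called in the authors' tables. The fold change minimum left 499 and 454 in the comparisons with wild type, and an adjusted p under 0.01 left 357, 254 and 35. Between the mutant groups, 43 were called over the genes in all 3 tables and 36 with the count minimum.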
